A study of Mus musculus with 2 samples.

Results

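GABAergic interneurons are the inhibitory nerve cells of the cortex. The account covers 9 genes that such cells use while they migrate: the homeobox genes Dlx1, Dlx2, Dlx5 and Dlx6, the LIM-homeobox gene Lhx6, the transmitter-synthesis genes Gad1 and Gad2, and the neuropeptide genes Sst and Npy. They were chosen by name, and each symbol was found on 1 row of both expression tables, so that 9 of the 20373 listed genes are described. Cortices of mouse embryos were taken at embryonic day 15.5 and sorted by fluorescence into 2 cell populations, and the RNA of each was sequenced as 1 library. The neuron library came from cells with green and red fluorescence together, and the neural progenitor cell (NPC) library came from green cells, per the labels. The column headings mark the neuron table with the letter R and the NPC table with D, which the labels do not explain, so the gates are given as labelled and were not checked further than by the genes of the reporters. All embryos of both groups carried a green fluorescent reporter under Nestin sequences, inherited from a heterozygous Nestin-GFP parent, and a red one under doublecortin sequences, inherited from a homozygous DCX-mRFP parent. How many embryos went into a library, and whether they were pooled, is not stated. Both libraries came from green cells and the red reporter came from a homozygous parent. The groups thus differ in which reporters a cell showed and not in reporter genotype. By their labels the gates set progenitors apart from young neurons, and they do not separate inhibitory from excitatory cells. How complete the separation was is not known, and genes of both were read in each library, as given below.

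In mice, most cortical interneurons are not born in the cortex but in the ganglionic eminences of the ventral forebrain, and they reach the cortex by tangential migration while they already express doublecortin. The Dlx factors act in progenitors and young neurons of the ganglionic eminences, where Dlx1 and Dlx2 come first and Dlx5 and Dlx6 follow. Lhx6 acts in the interneurons that arise in the medial ganglionic eminence, many of which later make somatostatin, and the Gad enzymes turn glutamate into GABA.

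Reads on listed genes came to 23312054 in the neuron library and 26346226 in the NPC library. Levels are in CPM, counts per 1000000 on the scaling between the libraries that the authors deposited, and 1 CPM is 22.8 reads in the neuron library and 26.97 in the NPC library. Nes, one of the 2 genes whose sequences drove the reporters, was at 189.5 CPM in neurons and 408.5 CPM in NPCs, and Dcx was at 3294 CPM in neurons and 2522 CPM in NPCs. The defining genes of neurons and of progenitors were thus read in both libraries. Each group has 1 library, so differences have no replicate check and carry no p-value. The 95% intervals are those of counting error alone, and reads are not independent molecules. In bulk RNA, fewer cells of a type and less RNA per cell cannot be told apart.

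Interneuron genes other than Npy were less abundant in the neuron library. Of the 9, 8 had a higher level in NPCs, from 1.18-fold for Gad1 to 4.89-fold for Dlx6, and Npy alone was higher in neurons, by a ratio of 1.22 with an interval that includes 1. The counting interval of the neuron to NPC ratio lay wholly below 1 for the same 8 genes, and it did so for 34.6% of the 12693 genes with at least 1 CPM in either library. It lay wholly above 1 for 0 of the 9 genes, against 33.6% of all genes. By any amount, 50.7% of these genes were higher in NPCs and 49.3% in neurons. Summed over the 9 genes the level was 220.4 CPM in neurons and 307.3 CPM in NPCs. All 9 passed the filter of 1 CPM, and Dlx6 passed it through the NPC library only, where it was the higher.

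**Figure D1:**
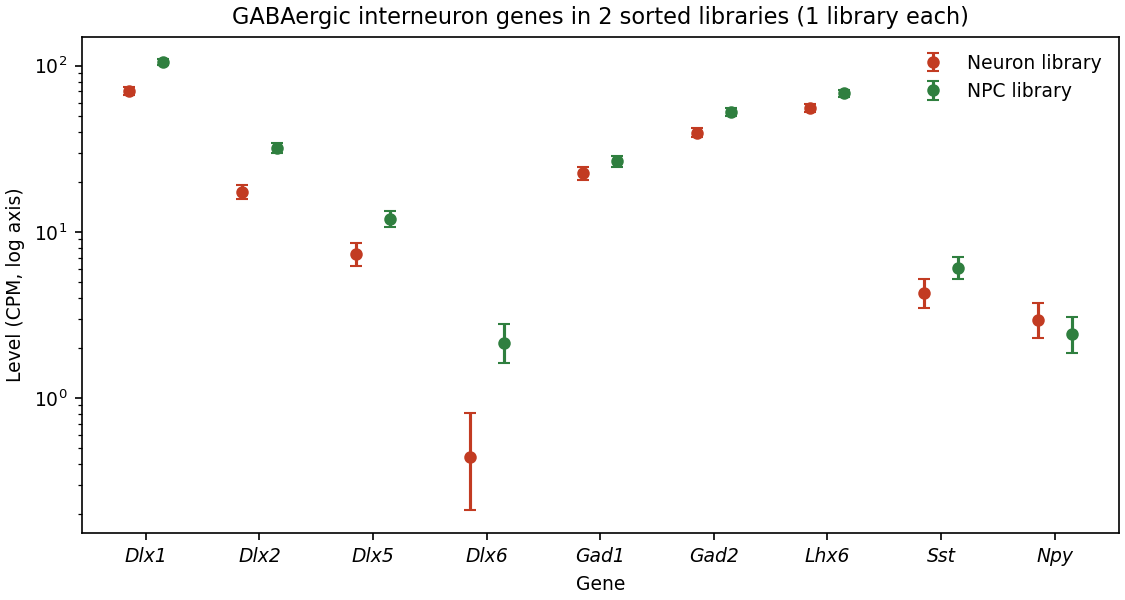
Level of each of the 9 genes in the neuron library (red, left of each pair) and the NPC library (green, right), in CPM on a log axis, with exact 95% Poisson intervals of the reads. The NPC point is above the neuron point for 8 genes, and for Npy the intervals of both libraries overlap.

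Most of these differences were smaller than 2-fold. With 1 CPM added to both values, as is done below for every log2 ratio, 0 of the 9 genes reached a 2-fold higher level in neurons, against 3.85% of all genes past the filter. On the same scale 1 of the 9, Dlx6, was at least 2-fold higher in NPCs, against 6.73% of all genes. That count of 1 was 3 at a threshold of 1.5-fold and 0 with 5 CPM added. The log2 ratio (neuron over NPC) had a median of -0.43 over the 9 genes and of -0.0049 over all 12693. The values ran from -1.13 for Dlx6 to 0.21 for Npy.

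**Figure D2:**
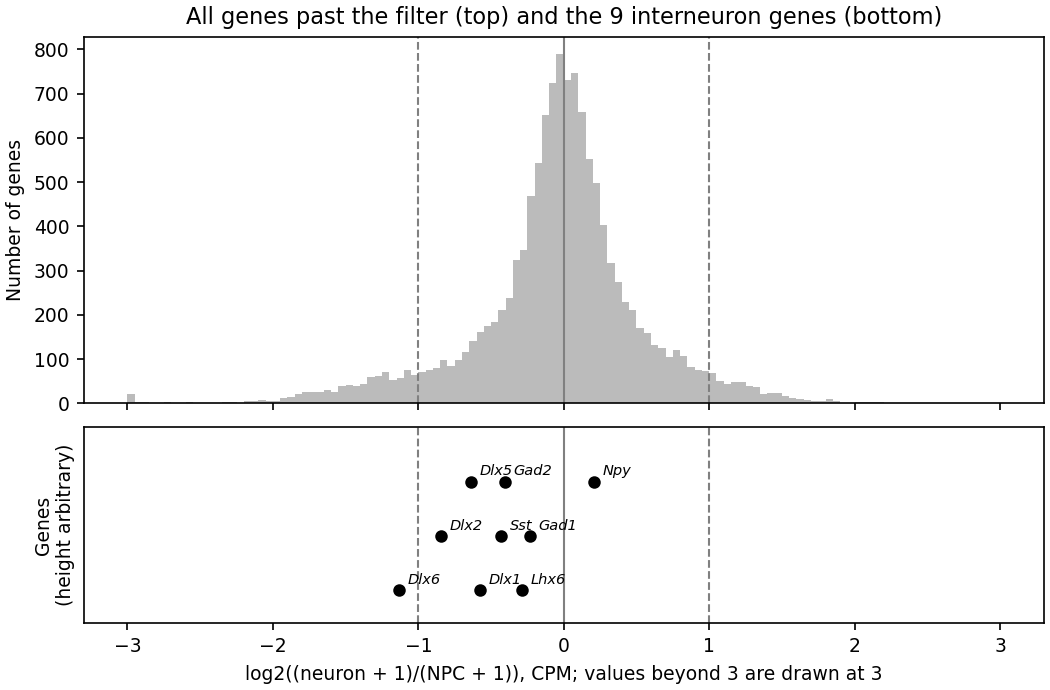
Number of genes at each log2 ratio of neuron to NPC with 1 CPM added, for the 12693 genes past the filter (top), and the ratio of the 9 interneuron genes on the same axis (bottom). Dashed lines mark 2-fold, and 8 of the 9 genes lie left of 0, with Dlx6 alone beyond the 2-fold line.

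The Dlx genes had the lowest ratios of the set. Dlx1 was the most abundant of them and was counted with 1604 reads in neurons and 2840 reads in NPCs. Its level was 70.4 CPM (95% Poisson interval 67.0 to 73.9) in neurons and 105.3 CPM (101.5 to 109.2) in NPCs, a neuron to NPC ratio of 0.669 (0.629 to 0.711). Dlx2, the partner that lies next to Dlx1 in the genome, stood at 17.4 CPM (15.8 to 19.2) in neurons and 32.1 CPM (30.003 to 34.3) in NPCs, with a ratio of 0.543 (0.481 to 0.612). In both genes the intervals of the neuron and NPC levels were well apart. Dlx5, which acts downstream of them, was at 7.33 CPM (6.26 to 8.53) in neurons and 11.97 CPM (10.7 to 13.4) in NPCs, a ratio of 0.612 (0.505 to 0.740). Dlx6, the neighbour of Dlx5, was near the limit of detection in neurons, with 10 reads and 0.439 CPM (0.210 to 0.807), against 58 reads and 2.15 CPM (1.63 to 2.78) in NPCs. Its ratio of 0.204 has a wide interval (0.0930 to 0.403) that still does not reach the values of the other Dlx genes. Both remaining genes of the family, Dlx3 and Dlx4, which are known from skin, teeth and placenta, had 0 reads in either library.

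The 4 Dlx genes are related in sequence, and it bears on their values whether reads can be told apart. The 60 coding bases that the 4 share best lie in the homeobox, in the part that encodes the helix contacting DNA. Of these bases 41 are the same in all 4 genes, and capitals mark the 19 that are not. The stretches are shown 5′ to 3′ on the coding strand, from GENCODE M21 transcripts.
Dlx1: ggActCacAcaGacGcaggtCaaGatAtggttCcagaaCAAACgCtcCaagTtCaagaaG
Dlx2: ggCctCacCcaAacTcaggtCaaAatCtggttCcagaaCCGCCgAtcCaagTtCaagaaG
Dlx5: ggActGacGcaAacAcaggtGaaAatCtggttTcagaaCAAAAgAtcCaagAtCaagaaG
Dlx6: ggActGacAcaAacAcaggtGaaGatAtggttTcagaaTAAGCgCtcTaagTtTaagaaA
Even in this stretch each pair of genes differs at 10 to 16 bases. Over whole transcripts the longest run of identical bases between any 2 of the 4 was 12 to 23 bases, and between Gad1 and Gad2 it was 17 bases. Gad1 shares a run of 107 bases with the annotated pseudogene Gad1-ps, so that some of its reads could have been assigned there, and its values are uncertain to that extent. Dlx1 and Dlx6 also lie across from antisense transcripts: 8.15% of the annotated exon bases of Dlx1 are covered by exons of Dlx1as, and 4.69% of those of Dlx6 by exons of Dlx6os2. Whether reads were counted by strand is not stated, so reads over these bases cannot be told apart from those of the antisense RNA. Values of the antisense genes were not analysed here.

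The transmitter-synthesis genes lay closer to equal. Gad2, which encodes the enzyme that supplies GABA at nerve terminals, was at 39.6 CPM (37.0 to 42.3) in neurons and 52.7 CPM (49.98 to 55.5) in NPCs, with a ratio of 0.752 (0.691 to 0.817). Gad1, which encodes the enzyme that makes most of the GABA in the cell body, was at 22.5 CPM (20.6 to 24.5) in neurons and 26.6 CPM (24.7 to 28.6) in NPCs, with a ratio of 0.845 (0.753 to 0.948). The intervals of the levels in the 2 libraries were apart for Gad2, and for Gad1 they just missed each other. Lhx6 was at 55.5 CPM (52.5 to 58.7) in neurons and 68.03 CPM (64.95 to 71.2) in NPCs, a ratio of 0.816 (0.759 to 0.877).

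The neuropeptide genes were low in both libraries. Sst, the gene of somatostatin, had 97 reads in neurons and 164 in NPCs, or 4.26 CPM (3.45 to 5.19) in neurons and 6.08 CPM (5.19 to 7.09) in NPCs. The ratio was 0.700 (0.539 to 0.906), and the intervals of the levels overlapped slightly at their ends. Npy, the gene of neuropeptide Y, had 67 reads in neurons and 65 in NPCs, or 2.94 CPM (2.28 to 3.73) in neurons and 2.41 CPM (1.86 to 3.07) in NPCs. Its ratio of 1.22 (0.854 to 1.74) showed no difference that was detectable at this depth, and the interval leaves room for values on both sides of 1.

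The start-site regions of both peptide genes and of the Dlx1 and Dlx2 pair are shown as examples: Sst and the Dlx pair had intervals wholly on the NPC side, and Npy had one that includes equality. Each is 300 bases, 250 before the start and 50 after it, 5′ to 3′ on the gene's strand, from RefSeq on GRCm38.p6. Capitals mark the palindrome TGACGTCA, the cyclic AMP response element for which the somatostatin promoter is a textbook example. The regions are chr16:23890795-23891094 on the minus strand for Sst, chr6:49822460-49822759 on the plus strand for Npy, chr2:71529195-71529494 on the plus strand for Dlx1 and chr2:71546705-71547004 on the minus strand for Dlx2.
Sst: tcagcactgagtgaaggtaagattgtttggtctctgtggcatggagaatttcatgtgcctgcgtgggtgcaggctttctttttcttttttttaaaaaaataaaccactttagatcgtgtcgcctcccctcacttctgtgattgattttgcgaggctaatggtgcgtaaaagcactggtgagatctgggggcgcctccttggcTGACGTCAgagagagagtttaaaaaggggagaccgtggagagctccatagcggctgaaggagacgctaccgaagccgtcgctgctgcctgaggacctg
Npy: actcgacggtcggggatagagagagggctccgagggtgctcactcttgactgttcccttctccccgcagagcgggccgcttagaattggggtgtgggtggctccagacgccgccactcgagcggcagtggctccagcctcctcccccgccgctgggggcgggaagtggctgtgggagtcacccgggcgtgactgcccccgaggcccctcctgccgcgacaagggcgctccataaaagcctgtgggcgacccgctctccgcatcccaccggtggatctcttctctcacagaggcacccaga
Dlx1: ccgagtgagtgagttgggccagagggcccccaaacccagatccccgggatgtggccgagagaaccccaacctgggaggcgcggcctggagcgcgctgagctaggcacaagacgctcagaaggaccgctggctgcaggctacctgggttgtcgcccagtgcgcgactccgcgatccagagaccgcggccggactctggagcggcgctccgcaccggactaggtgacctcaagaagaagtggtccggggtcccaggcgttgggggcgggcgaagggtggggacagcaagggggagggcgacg
Dlx2: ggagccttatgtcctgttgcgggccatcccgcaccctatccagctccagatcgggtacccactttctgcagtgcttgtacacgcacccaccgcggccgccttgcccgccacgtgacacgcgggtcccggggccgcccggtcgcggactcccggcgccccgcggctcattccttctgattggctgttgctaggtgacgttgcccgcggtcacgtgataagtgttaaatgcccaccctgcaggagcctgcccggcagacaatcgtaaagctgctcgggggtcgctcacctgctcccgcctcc
Searched on both strands, TGACGTCA stands once in the Sst region, 48 bases before the start, and in 1.79% of the 32851 start-site regions of the table. It is in none of the other 8 regions listed for these genes. With that of Sst the 9 regions cover 7 of the 9 genes, because Lhx6 has 3. The homeodomain core TAATTA is in none of the 9 regions and in 5.29% of all regions, and TATAAA is in 2 of the 9, that of Gad1 and 1 of the 3 of Lhx6, and in 13.6% of all. The number of CG dinucleotides was 13 for Sst, 24 for Npy, 27 for Dlx1 and 29 for Dlx2, against a median of 7 over all regions. A match of letters describes the window and shows neither binding nor control.

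**Figure D3:**
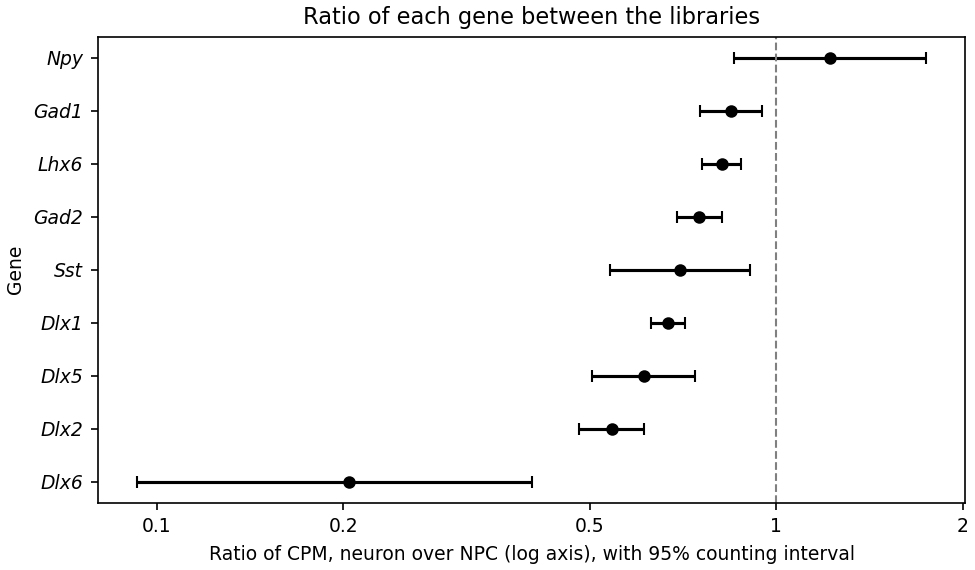
Ratio of CPM of neuron over NPC for each of the 9 genes on a log axis, with exact 95% counting intervals, ordered by ratio. The 4 Dlx genes have the lowest ratios, from 0.204 to 0.669, and the interval of Npy alone crosses the dashed line at 1.

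The 9 genes did not all share a single ratio. A ratio of 2 genes within a library is free of the scaling between libraries, so it was compared first for the gene pairs. Gad1 had 0.568 reads per read of Gad2 in neurons and 0.505 in NPCs, and the change of 1.12-fold had an interval that includes 1 (0.977 to 1.30). Dlx1 had 4.04 reads per read of Dlx2 in neurons and 3.28 in NPCs, a change of 1.23-fold (1.08 to 1.41). Dlx6 had 0.0599 reads per read of Dlx5 in neurons and 0.180 in NPCs, a change of 0.333-fold (0.166 to 0.669). So the Gad pair kept nearly the same proportion in both libraries within counting error, and in both Dlx pairs one gene was relatively scarcer in neurons.

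Set against Lhx6, in a comparison added after the values were seen, all 4 Dlx genes were relatively less abundant in neurons than in NPCs. The change was 0.819-fold for Dlx1 (0.746 to 0.900), 0.665-fold for Dlx2 (0.579 to 0.764), 0.750-fold for Dlx5 (0.614 to 0.916) and 0.250-fold for Dlx6 (0.127 to 0.491). For Gad1, Gad2 and Sst the interval of the change included 1. Npy was relatively more abundant in neurons, by 1.5-fold (1.06 to 2.12). In order of the neuron to NPC ratio the genes ran Dlx6, Dlx2, Dlx5, Dlx1, Sst, Gad2, Lhx6, Gad1 and Npy. Of the 8 neighbouring pairs in this order only 2 were apart beyond counting error, Dlx6 from Dlx2 and Gad1 from Npy.

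Levels between genes were compared per kilobase of annotated exon. On this scale Dlx1 had 17.1 CPM per kilobase in neurons and 25.6 in NPCs, the highest value of the 9 genes in both libraries. Lhx6 was next with 15.01 CPM per kilobase in neurons and 18.4 in NPCs, apart from Dlx1 beyond counting error in each. Dlx6 was lowest, with 0.198 CPM per kilobase in neurons and 0.970 in NPCs. In neurons the 6 genes from Dlx2 (7.05 CPM per kilobase) through Gad2, Sst, Npy and Dlx5 to Gad1 (5.15) formed a run in which each gene's interval overlapped that of the next. In NPCs Dlx2 (12.98 CPM per kilobase) stood apart from Gad2 (9.17), while Gad2, Sst (8.43) and Dlx5 (8.42) overlapped, followed by Gad1 (6.09) and Npy (4.26).

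Other genes of the interneuron programme were read from lists chosen with earlier results of these data known. Of 15 measured transcription factor genes of young interneurons, 0 reached a 2-fold higher level in neurons and 2 did so in NPCs. The median of their log2 ratios was -0.62. Sp9, which works with the Dlx factors in young interneurons and is named after its value was seen, was at 11.2 CPM in neurons and 18.2 CPM in NPCs, a ratio of 0.619 (0.530 to 0.721). Several genes of the list are also used by progenitors or excitatory neurons of the cortex itself. Both genes at least 2-fold higher in NPCs are of this kind: Sox6 at 79.4 CPM in neurons and 240.9 CPM in NPCs, and Etv1 at 7.15 CPM in neurons and 22.02 CPM in NPCs. Prox1 was at 3.47 CPM in neurons and 7.90 CPM in NPCs, a ratio of 0.439 (0.335 to 0.571). With 1 CPM added it fell just short of 2-fold, at a log2 ratio of -0.994. Zeb2, which directs interneurons to the cortex and is also made by excitatory neurons, was the most abundant and lay the other way, at 666.2 CPM in neurons and 394.6 CPM in NPCs, a ratio of 1.69 (1.65 to 1.73). Npas1, named after its value was seen, was at 7.07 CPM in neurons and 3.67 CPM in NPCs, a ratio of 1.93 (1.49 to 2.50).

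Genes that handle GABA lay within 2-fold throughout, with 0 of 9 past the filter at least 2-fold higher in either library and a median log2 ratio of -0.20. For all genes those shares were 3.85% in neurons and 6.73% in NPCs. Slc32a1, the vesicular GABA transporter that inhibitory neurons need, was at 10.8 CPM in neurons and 16.6 CPM in NPCs, a ratio of 0.653 (0.557 to 0.764). Abat, whose enzyme breaks GABA down, was at 33.4 CPM in neurons and 57.7 CPM in NPCs, a ratio of 0.579 (0.530 to 0.631). Both genes lay on the NPC side, as the Gad genes did.

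Receptors and ligands of interneuron migration went both ways, and the median of their log2 ratios was -0.25. Of 16, 3 reached a 2-fold higher level in neurons, against 3.85% of all genes, and 2 in NPCs, against 6.73%. The adhesion gene Cdh13 (105.3 CPM in neurons and 36.1 CPM in NPCs), the neuregulin gene Nrg3 (28.6 CPM in neurons and 11.6 CPM in NPCs) and the guidance receptor gene Robo1 (418.2 CPM in neurons and 179.5 CPM in NPCs) were the 3 higher in neurons. Excitatory neurons make Robo1 and Nrg3 as well. The 2 higher in NPCs were Thrb (4.83 CPM in neurons and 12.98 CPM in NPCs) and Gfra1 (5.18 and 13.7 CPM). Epha4, the most abundant over both libraries, was at 404.0 CPM in neurons and 730.9 CPM in NPCs, a ratio of 0.553 (0.539 to 0.567). Cxcr4, Cxcr7 (the older symbol of Ackr3) and Erbb4 are receptors that guide interneurons, and they are named after their values were seen. Cxcr4 was at 22.9 CPM in neurons and 25.8 CPM in NPCs, a ratio of 0.886 (0.790 to 0.994). Cxcr7 was at 32.4 CPM in neurons and 41.4 CPM in NPCs, a ratio of 0.783 (0.712 to 0.860). Erbb4 was at 20.6 CPM in neurons and 27.4 CPM in NPCs, a ratio of 0.752 (0.668 to 0.845).

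Markers of interneuron classes ranged widely in level. Of 20 measured genes 13 passed the filter, and the median of their log2 ratios was 0.29. A 2-fold higher level was reached by 3 of them in neurons and by 0 in NPCs. The shares over all genes past the filter were 3.85% in neurons and 6.73% in NPCs. The 3 were Reln (434.2 CPM in neurons and 95.8 CPM in NPCs), Nos1 (89.1 CPM in neurons and 42.3 CPM in NPCs) and Calb2 (3.25 CPM in neurons and 0.927 CPM in NPCs). Calb2 passed the filter through the neuron library only, so nothing is read from the count of 3. Kcnc1, a potassium channel gene of fast-spiking cells, was at 74.1 CPM in neurons and 44.8 CPM in NPCs, and Cck, a neuropeptide gene, at 3.95 CPM in neurons and 1.93 CPM in NPCs. Reln and Calb2 are also markers of Cajal-Retzius cells. Of the other 7 markers of those cells 3 reached a 2-fold higher level in neurons, against 3.85% of all genes. They were Trp73 (16.5 CPM in neurons and 2.04 CPM in NPCs), Lhx5 (3.07 and 0.259 CPM) and Lhx1 (1.76 and 0.148 CPM). Lhx1 and Lhx5 passed the filter through the neuron library only, so nothing is read from this count. Summed levels of the 7 were 60.8 CPM in neurons and 37.8 CPM in NPCs. The largest part was Nhlh2 (26.7 and 20.7 CPM), named after its value was seen. The share of Cajal-Retzius cells in the values of Reln and Calb2 was not tested. Pvalb and Vip, markers of classes that mature after birth, had 0 reads in both libraries, where 3 reads would be 0.132 CPM in neurons and 0.111 CPM in NPCs. Nxph1, a secreted protein gene of Lhx6-lineage interneurons named after its value was seen, was at 10.1 CPM in neurons and 14.1 CPM in NPCs, a ratio of 0.712 (0.601 to 0.841).

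**Figure D4:**
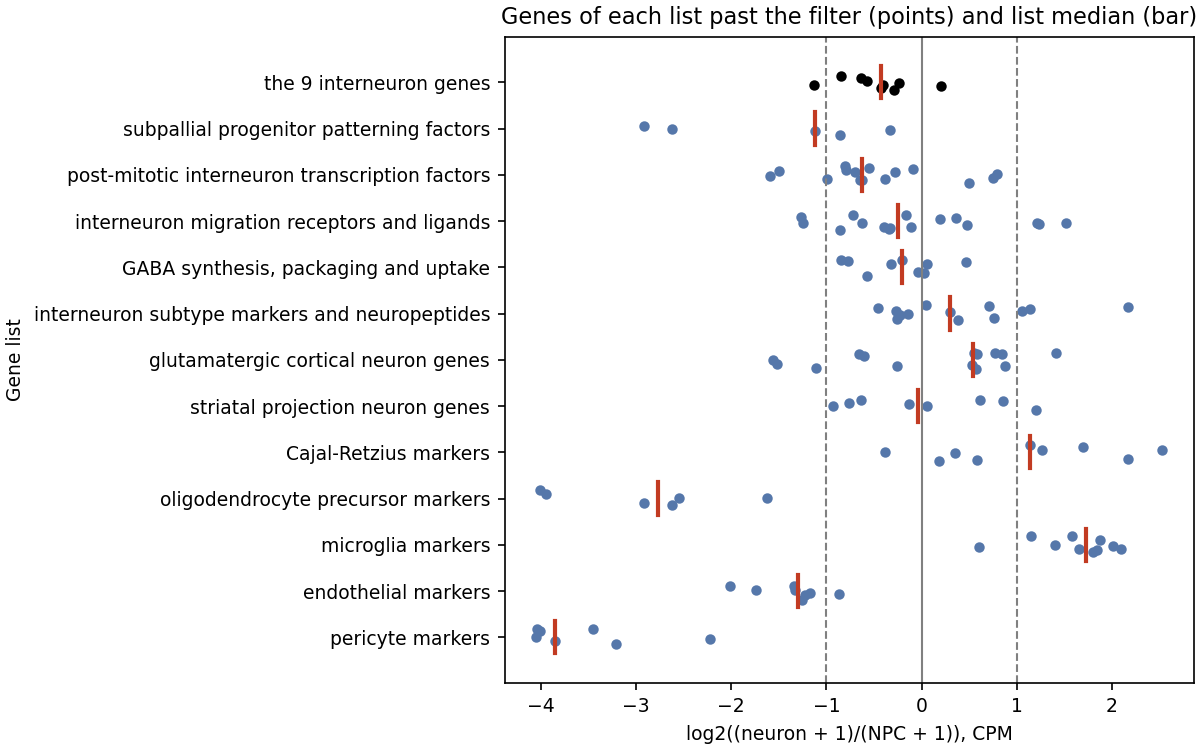
Log2 ratio of neuron to NPC with 1 CPM added for each gene past the filter (points) and the median of each list (red bar), for the 9 interneuron genes and 12 further lists, some of which share genes. The 9 genes have a median of -0.43, between those of the nearest lists, the interneuron transcription factors at -0.62 and the migration genes at -0.25.

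Patterning factors of the ventral progenitor zones were close to the limit of detection, apart from genes that the cortex also uses. Nkx2-1, which defines the medial ganglionic eminence, had 5 reads in neurons and 24 in NPCs, or 0.220 CPM in neurons and 0.890 CPM in NPCs, and it did not pass the filter. Gsx2, of the lateral ganglionic eminence, had 8 reads in neurons and 39 in NPCs, or 0.352 CPM in neurons and 1.45 CPM in NPCs. Lhx8 had 1 read in neurons and 4 in NPCs, and Gsx1 0 reads in neurons and 1 in NPCs (Nkx2-1, Lhx8 and Gsx1 are named after their values were seen). Meis2, which cortical cells make too, was at 412.0 CPM in neurons and 520.4 CPM in NPCs. In all, 5 of 12 measured genes of this list passed the filter and 3 of them were at least 2-fold higher in NPCs, against 6.73% of all genes. Among the 3, Olig1 (0.439 CPM in neurons and 9.82 CPM in NPCs) and Olig2 (0.395 and 7.60 CPM) passed through the NPC library only. Nothing is read from this count. Striatal projection neurons, the other GABAergic cells of the ventral forebrain, were read from 12 genes. The most different was Ppp1r1b, a phosphatase regulator of these cells that cortical neurons also make, at 32.96 CPM in neurons and 13.8 CPM in NPCs, a ratio of 2.40 (2.11 to 2.72). The transcription factor gene Foxp2, likewise made in the cortex, was at 25.1 CPM in neurons and 48.8 CPM in NPCs, a ratio of 0.514 (0.465 to 0.567). Of the dopamine receptor genes, named after their values were seen, Drd1a was at 5.05 CPM in neurons and 2.97 CPM in NPCs, a ratio of 1.70 (1.27 to 2.29), and Drd2 had 1 read in each library. Past the filter were 8 striatal genes with a median of -0.038. Of these, 1 reached a 2-fold higher level in neurons, against 3.85% of all genes, and 0 in NPCs, against 6.73%.

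Genes of excitatory cortical neurons lay on both sides of equality. A 2-fold higher level was reached by 1 of 14 such genes in neurons and by 3 in NPCs, and the median of the log2 ratios was 0.54. Shares of all genes at that level were 3.85% in neurons and 6.73% in NPCs. The 3 higher in NPCs were the patterning gene Emx2, at 19.4 CPM in neurons and 42.7 CPM in NPCs, and Neurog2 and Eomes, which are genes of progenitors that produce these neurons. Slc17a7, a vesicular glutamate transporter gene, was at 69.04 CPM in neurons and 37.2 CPM in NPCs, a ratio of 1.86 (1.71 to 2.01). Slc17a6, another vesicular glutamate transporter gene, named after its value was seen, was at 125.0 CPM in neurons and 197.3 CPM in NPCs. Its ratio of 0.634 (0.605 to 0.663) lay near that of Slc32a1, so that the vesicular transporter genes for glutamate lay on both sides of 1.

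Markers of other cells that the gates could hold also differed in level between these libraries. Oligodendrocyte precursors, some of which also come from the ganglionic eminences, had summed marker levels of 3.03 CPM in neurons and 82.8 CPM in NPCs over 7 genes. Of the 6 past the filter, all of them at least 2-fold higher in NPCs, 5 passed it through the NPC library only, and nothing is read from this count. Cspg4 stands in the pericyte list too, and without it the sums were 2.02 CPM in neurons and 51.6 CPM in NPCs. The summed levels of 7 pericyte markers were 9.92 CPM in neurons and 223.5 CPM in NPCs, and those of 9 endothelial markers 3.38 CPM in neurons and 22.5 CPM in NPCs. The 10 microglia markers went the other way, with 137.5 CPM in neurons and 32.0 CPM in NPCs. None of the markers in these 4 lists was at 0 in both libraries. The part of any of these cells in the values of the 9 interneuron genes was not tested.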

How the data were processed

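RNA from 1 neuron and 1 NPC library was sequenced after sorting and TRIzol extraction, with an Illumina TruSeq kit, per the labels' protocols. Build mm9, TopHat 1.2.0, CASAVA 1.9, edgeR and SAMtools 0.1.18 are listed in the submitters' processing notes. The deposited values are a signal with the form of read counts rescaled by the authors to one library size. Dividing by the value of 1 read (1.12797 in neurons, 0.952727 in NPCs) gave whole reads within 0.05 for 99.9656% and 100% of genes. Values under 0.01 were taken as 0. Both libraries were divided by 25698104 and multiplied by 1000000 to give CPM. The filter was 1 CPM in at least 1 library. Ratios have Clopper-Pearson intervals of the share of reads, levels have Poisson intervals and changes of gene pairs Woolf intervals, all at 95%. A count test was not run, because 1 library per group leaves no residual degrees of freedom. Exon lengths came from GENCODE M21 (GRCm38), whose build differs from that of the reads. Of the list genes, 2 were found by an older symbol, and Nkx6-2, Dlx6os1 and Dlx1as were not measured. Named genes were the 9 members, Nes, Dcx and, per list, up to 5 with the largest absolute log2 ratio and the most abundant one; others are marked as named after their values were seen. A few genes under this rule are not reported here. Members and lists were chosen with earlier results of these data known. The calculations were tested on simulated data. Python 3.11.15, scipy 1.17.1 and, for TMM and upper-quartile factors, edgeR 4.0.16 were used.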

Additional observations from a re-analysis of the deposited data

How the results depend on the processing

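The intervals cover counting error in 2 libraries and say nothing of the spread between embryos or sorts. Scaling by total reads, by trimmed mean of M-values or by upper quartile, pseudocounts of 0.1 or 5 CPM, no filter and a 10 CPM filter gave every tested gene of the 9 the direction reported, and moved the median of all genes by less than 0.1. With a 10 CPM minimum 6 of the 9 were tested, without Dlx6, Sst and Npy. The median over the 9 genes ran from -0.50 (0.1 CPM added) to -0.37 (5 CPM added). No member was at least 2-fold higher in neurons under any setting. The number at least 2-fold higher in NPCs, 1 as reported, was 0 with 5 CPM added, 0 with the 10 CPM minimum and 3 at a 1.5-fold threshold. Over all genes, the count higher in neurons, 489 as reported, was 238 with 5 CPM added and 1346 at 1.5-fold, and that higher in NPCs, 854 as reported, was 399 with 5 CPM added, 548 with the 10 CPM minimum and 1659 at 1.5-fold. Some list values moved more. The median of the interneuron class markers was 0.29 as reported and 0.034 without a filter, and that of the striatal genes, -0.038 as reported, was 0.13 with the 10 CPM minimum, which left 2 genes. The median of the ventral patterning factors was -1.12 as reported, -0.42 without a filter and -1.78 with 0.1 CPM added, and that of all 9 Cajal-Retzius markers was 1.14 as reported and 0.39 with 5 CPM added. With 5 CPM added, the migration genes at least 2-fold higher in NPCs numbered 0 in place of 2, the class markers higher in neurons 1 in place of 3 and all Cajal-Retzius markers higher in neurons 2 in place of 5. Interneuron transcription factors at least 2-fold higher in NPCs numbered 3 in place of 2 with total-read or upper-quartile scaling or 0.1 CPM added. No paired analysis was possible because each group has 1 library, and no replicate could be left out for the same reason.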
